A study of Mus musculus with 27 samples.

Results

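Integrins, matrix proteins and metalloproteases, with the selectins, cadherins, claudins and syndecans that share their work at the cell surface, were followed in bone marrow cells of a mouse leukemia. Members were chosen by gene name, not by their values: a name had to begin with the stem of an integrin chain, collagen, laminin, ADAM or ADAMTS protease, matrix metalloproteinase, TIMP, syndecan, thrombospondin, selectin, ICAM, cadherin, protocadherin, claudin or EMILIN, or be fibronectin. Of the 5486 genes in the deposited table, 63 matched. They comprise 7 integrin alpha chains, 6 integrin beta chains, 14 collagens, 4 ADAM and 4 ADAMTS genes, 2 matrix metalloproteinases, 2 TIMPs, 2 laminin chains, 4 matrix glycoproteins, 2 selectins, 1 ICAM, 2 cadherins, 3 protocadherins, 5 claudins and 2 syndecans. The remaining 3 of the 63 matched by spelling alone: Selenbp1 and Selenbp2, which encode selenium-binding proteins, and Itgb1bp1, an adaptor of the integrin beta1 tail. Itgam, Itga2b, Mmp8 and Mmp9 were kept out of the members and are given as markers.

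The leukemia was MLL-AF9-driven acute myeloid leukemia (AML). Granulocyte-macrophage progenitors (GMPs) of mT/mG mice, whose cells carry a red fluorescent protein, had been transduced with a retrovirus encoding MLL-AF9 and GFP. The resulting primary blasts were passed to secondary recipients that had received no conditioning. The 18 AML libraries came from 3 donor sources, labelled clones 1, 3 and 19, with cells of donor bone marrow for clones 1 and 3 and of donor spleen for clone 19. For each clone there were 3 libraries of endosteal AML cells, obtained by crushing the metaphysis of tibias and femurs, and 3 of central AML cells, obtained by flushing the diaphysis. Live GFP+ mTomato+ cells were sorted. Region and the way of releasing cells cannot be told apart in this design. The 9 control libraries held GMPs sorted from whole bone marrow of healthy wild-type mice matched for age and sex, in 3 control sets of 3. Each control label names 3 mice, and libraries of a set share mice in their labels, which do not say if cells of these mice were pooled. Cell sort, transplantation and leukemia therefore change together between AML and GMP, and each clone stands for 1 donor source.

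Integrins are pairs of an alpha and a beta chain that bind matrix proteins or counter-receptors on other cells. Alpha4beta1 and alpha5beta1 bind fibronectin, alpha1beta1 binds collagens, alpha6 pairs bind laminins, and the beta2 integrins of leukocytes bind ICAMs. Collagens, laminins and fibronectin build the matrix, while metalloproteases of the MMP, ADAM and ADAMTS families cut matrix or membrane proteins and TIMPs inhibit them. In bone marrow, VLA-4 (Itga4 with Itgb1), LFA-1 (Itgal with Itgb2) and selectins are known for homing and retention of blood cells.

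Reads were taken from the 3′ ends of mRNAs and expressed as CPM, read counts scaled to the total of the library. The step of 1 read could be read off the values in 24 libraries. Their depth was 5595000 to 13414000 reads (median 9051000, rounded to the nearest 1000). Over all 27 libraries, the table held 21.97% to 28.3% of the reads. Every gene in the table has an adjusted p-value below 0.05 in the authors' own test, so shares of called genes over the table are high and genes of these families outside the table were not analysed here. The median gene was 0.33 higher in AML cells than in GMPs on the log2 scale. TMM scaling left 0.23 of this shift and quantile normalization 0.18. The split of calls over all genes moved with it (939 higher and 641 lower as deposited, 793 and 786 after TMM scaling, 715 and 859 after quantile normalization). Library 18, endosteal clone 1, lay 1.10 from the mean of the rest of its group (root mean square, log2 scale) against 0.27 to 0.68 for the other 26 libraries. Mpo, a granule enzyme that marks GMPs, averaged 397 to 2988 CPM in the AML clones and 13010 CPM in GMP libraries. It was 1 of 10 tested GMP markers, of which 5 were called lower in AML cells, by the rule given below, and 0 higher. By adjusted p alone (limma, below 0.05), 8 were lower and 2 higher.

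The first question was which adhesion and matrix genes set AML cells apart from GMPs. Of the 63 members, 57 reached 1 CPM in at least 3 of the 27 libraries and were tested. A member was called when its adjusted p-value was below 0.05 and its log2 fold change of CPM + 1 was at least 1 in size. In AML cells, 14 of 57 members were called higher, beside 18.2% of all 5160 tested genes, and 7 were called lower, beside 12.4%. The median log2 fold change was 0.51 over the members and 0.33 over all genes. The filter itself bears on these counts. In 19 members it was met by AML libraries alone, with fewer than 3 GMP libraries at 1 CPM, and these hold 5 of the 14 called higher. Those 5 were Adam19, Adam3, Col19a1, Col5a3 and Col6a3. In 7 members the filter was met by GMP libraries alone (Cldn13, Col16a1, Col1a1, Col1a2, Sdc2, Selp and Timp3), and these hold 5 of the 7 called lower. The ranges of AML and GMP libraries did not overlap in 765 of all 5486 genes (13.9%) and in 7 of the 63 members.

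Leukocyte integrin chains were among the members that were higher in AML cells. Itgb2, the common beta chain of LFA-1, Mac-1 and CD11c integrins (chromosome 10, 77530252 to 77565708, mm10), ranged over 19.4, 44.8 and 75.5 CPM (lowest, median, highest) in 18 AML libraries, against 1.41, 3.76 and 12.7 CPM in 9 GMP libraries. No AML library overlapped the GMPs. The log2 fold change was 3.14 ± 0.23 (SE; adjusted p = 5.37e-12), and it was 2.92, 3.32 and 3.18 in clones 1, 3 and 19. Itgax, the CD11c alpha chain that pairs with Itgb2, stood at 2.61, 4.21 and 22.4 CPM in AML libraries and at 0, 0.927 and 2.21 CPM in GMP libraries, again without overlap (log2 fold change 1.57 ± 0.22, adjusted p = 5.14e-07). The highest Itgax value, 22.4 CPM, belonged to library 18, and the next was 7.18 CPM.

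The other alpha partner among the members did not follow. Itgal, the LFA-1 alpha chain, averaged 47.1 ± 17.7 CPM in AML cells (SD, n = 18) and 59.6 ± 7.75 CPM in GMPs (SD, n = 9). Its log2 fold change of -0.41 ± 0.11 was past the threshold (limma, adjusted p = 0.00102) but below the size needed for a call. Itgam, the Mac-1 alpha chain and no member, averaged 34.1, 29.8 and 25.5 CPM in clones 1, 3 and 19, compared with 4.75 CPM in GMPs. Neutrophil markers, a list that holds Itgam itself, moved the same way. Of the 11 in the table, 9 were called higher in AML cells and none lower. Their summed level was 573 to 3134 CPM in AML libraries and 66.1 to 303 CPM in GMP libraries. Their part in the integrin differences was not tested.

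Itgb5, which pairs with the alphav chain to bind vitronectin (chromosome 16, 33829665 to 33949338), reached 2.76, 23.1 and 38.02 CPM in AML libraries, against 2.58, 2.90 and 4.65 CPM in GMP libraries. Only library 18 lay within the GMP range, as the next lowest AML library had 10.8 CPM. The log2 fold change was 2.30 ± 0.19 (adjusted p = 5.76e-11). Itgb7, the beta chain of the mucosal homing receptor alpha4beta7, stood at 22.4, 49.1 and 158 CPM in AML libraries and at 14.2, 20.03 and 28.5 CPM in GMP libraries (log2 fold change 1.38 ± 0.15, adjusted p = 1.03e-08). Its rise came with clones 1 and 3, at 2.23 and 1.53 against GMPs, whereas clone 19 was at 0.37 (adjusted p = 0.0815). Without clone 1 the AML change was 0.95 and below the size for a call. Itga1, the collagen receptor chain, averaged 14.6 ± 12.1 CPM in AML cells and 4.38 ± 1.41 CPM in GMPs (1.08 ± 0.22, adjusted p = 8.39e-05), and its call was lost with TMM scaling (0.97), quantile normalization (0.88), without GMP library 9 (0.94) and without clone 1 (0.53) or clone 3 (0.77).

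The chains of the fibronectin receptors alpha4beta1 and alpha5beta1 moved little. Itga4 averaged 42.2 ± 9.35 CPM in AML cells and 39.4 ± 9.94 CPM in GMPs (log2 fold change 0.11 ± 0.12, adjusted p = 0.39), and its sign turned under TMM scaling (-0.01). Itga5 was low in both, at 1.10 ± 0.70 CPM in AML cells and 1.11 ± 0.43 CPM in GMPs (-0.05 ± 0.13, adjusted p = 0.71). Itgb1, the shared beta chain, averaged 58.1 ± 8.77 CPM in AML cells and 76.9 ± 8.57 CPM in GMPs, a log2 fold change of -0.40 ± 0.08 (adjusted p = 0.000125) that was too small for a call. Their ligand behaved otherwise. Fn1, fibronectin (chromosome 1, 71585520 to 71653200), stood at 14.6, 42.8 and 168 CPM in AML libraries, against 1.09, 2.28 and 3.24 CPM in GMP libraries. Every AML library was above every GMP library, and the log2 fold change of 3.86 ± 0.28 (adjusted p = 2.78e-12) was the largest of all members.

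**Figure D1:**
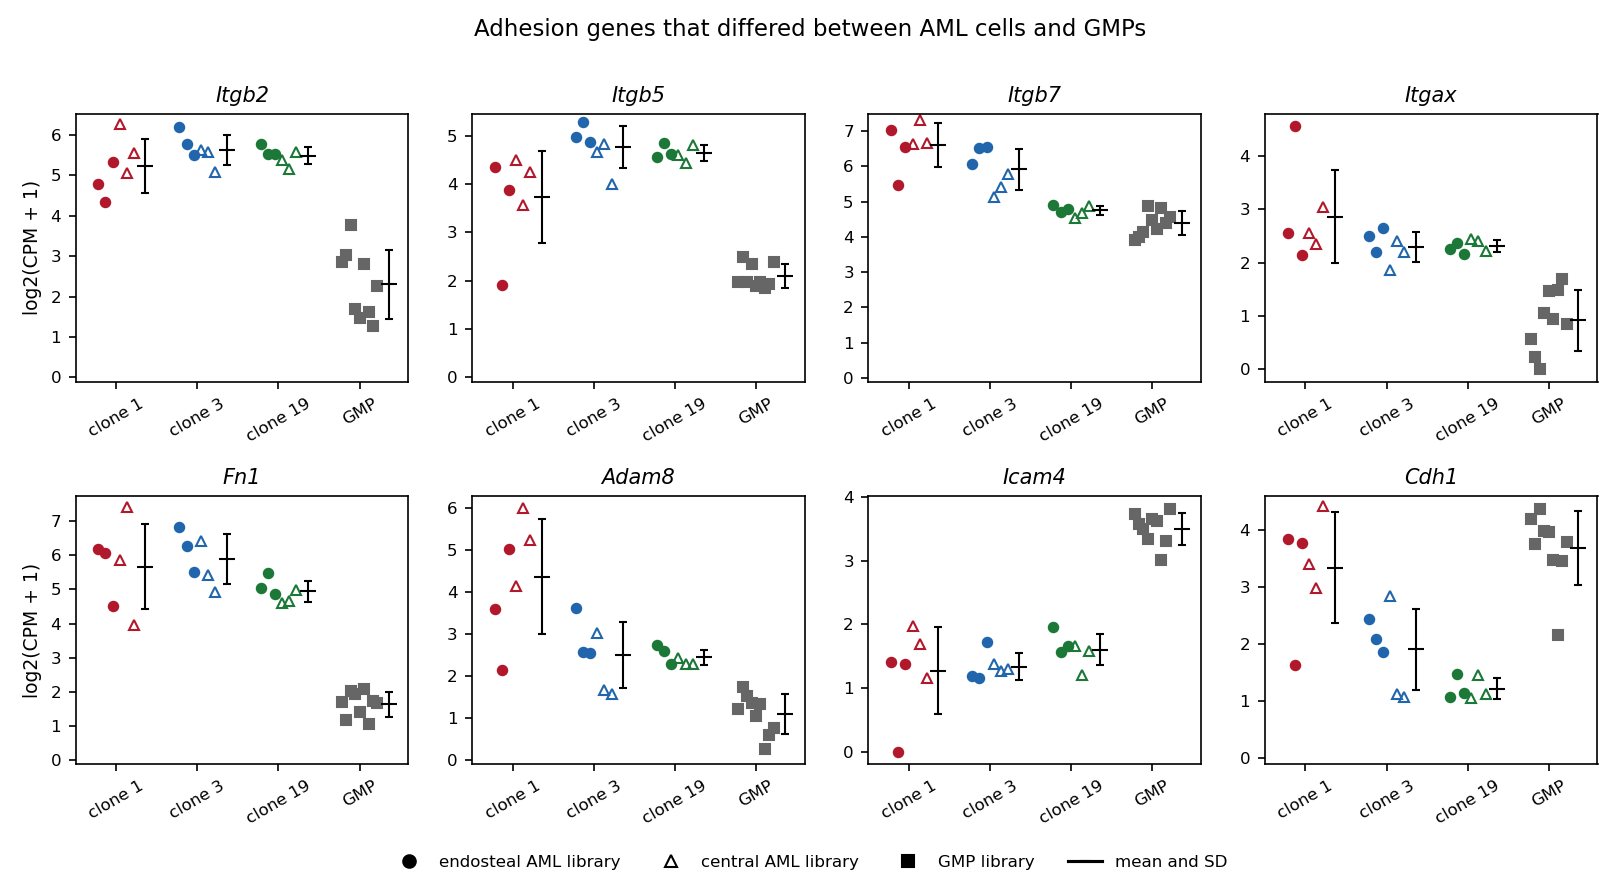
Level of 8 adhesion genes in each library on a log2(CPM + 1) scale, for clones 1, 3 and 19 and for GMPs (filled circles endosteal, open triangles central, squares GMP; black marks show mean and SD). Itgb2, Itgax and Fn1 were above and Icam4 below GMPs in all 18 AML libraries, whereas Itgb5 overlapped through library 18 alone and Cdh1 in clones 1 and 3 overlapped the GMPs.

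Collagen genes accounted for 4 of the members called higher and 2 called lower, of 12 tested. Col6a3, a chain of the beaded microfibrils of collagen VI (chromosome 1, 90765923 to 90843971), had a log2 fold change of 3.41 ± 0.22 (adjusted p = 4.25e-13) and Col19a1, a collagen of basement membrane zones, one of 2.68 ± 0.19 (adjusted p = 1.71e-12). Col5a3, a chain of fibrillar collagen V, was 1.87 ± 0.14 higher (adjusted p = 1.3e-11) and Col11a2, of cartilage collagen XI, 1.29 ± 0.17 higher (adjusted p = 2.02e-07). Col11a2 was the only one of these in which AML and GMP libraries did not overlap (3.75, 6.88 and 26.5 CPM in AML libraries, 1.14, 2.61 and 3.67 CPM in GMP libraries). For the first 3 genes the range within AML cells was wide, as described for the clones below. These 3 met the filter through AML libraries alone. The 2 called lower, Col16a1 and Col1a1, met it through GMP libraries alone. Standard errors and p-values here hold the spread of libraries within groups, not that among clones.

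Tested metalloproteases were higher or not called. All 3 tested ADAM genes were called higher, but Adam19 and Adam3 met the filter through AML libraries alone. Adam22 fell short of the filter, at 0 CPM in every AML library and a mean of 0.337 CPM in GMPs. Adam8, a membrane protease of leukocytes, stood at 1.96, 4.94 and 62.5 CPM in AML libraries and at 0.199, 1.30 and 2.32 CPM in GMP libraries (2.01 ± 0.26, adjusted p = 2.08e-07), and Adam3 averaged 1.92 ± 0.69 CPM in AML cells and 0.249 ± 0.19 CPM in GMPs (1.203 ± 0.11, adjusted p = 4.19e-10). Adam19 (1.01 ± 0.13, adjusted p = 9.38e-08) sat at the size threshold and fell below it without any 1 of 7 AML or 5 GMP libraries, at 0.947 to 0.999. Its call was also lost with TMM scaling (0.96), quantile normalization (0.90) and central AML libraries alone (0.76). Without clone 1 or clone 3 it stood at 0.70 and 0.78. Adam19 averaged 2.82, 2.59 and 0.137 CPM in clones 1, 3 and 19, against 0.192 CPM in GMPs. Mmp19, which degrades basement membrane proteins, averaged 25.3 ± 6.76 CPM in AML cells and 12.4 ± 2.85 CPM in GMPs (0.95 ± 0.15, adjusted p = 2.76e-06), just under a call, and it was called in clone 3 (1.16) and clone 19 (1.23). Mmp28 did not differ detectably (-0.15 ± 0.14, adjusted p = 0.315). None of the 4 tested ADAMTS genes was called over all AML cells.

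Among cell-cell adhesion genes, Icam4 showed the clearest fall. Icam4, the erythroid ICAM of the Landsteiner-Wiener blood group in human (chromosome 9, 21029373 to 21030595), stood at 0, 1.63 and 2.94 CPM in AML libraries and at 7.05, 10.9 and 13.1 CPM in GMP libraries, with no overlap and a log2 fold change of -2.10 ± 0.15 (adjusted p = 2.44e-12). Cdh1, which encodes E-cadherin, averaged 5.08 ± 5.51 CPM in AML cells and 12.8 ± 4.66 CPM in GMPs (-1.53 ± 0.26, adjusted p = 1.22e-05), with clone 1 at -0.34 (adjusted p = 0.384), clone 3 at -1.78 and clone 19 at -2.46. Selp, P-selectin of platelets and endothelium, averaged 0.320 ± 0.40 CPM in AML cells and 2.97 ± 1.38 CPM in GMPs (-1.51 ± 0.19, adjusted p = 7.54e-08). Cldn15, a claudin of tight junctions, was 1.13 ± 0.14 higher (adjusted p = 4.46e-08), but at 0.94 to 0.97 it was below a call with quantile normalization, edgeR and voom, and at 0.86 without control set C.

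The remaining members called lower were low everywhere. Timp3, the matrix-bound inhibitor of metalloproteases, averaged 0.0506 CPM in AML cells and 2.74 CPM in GMPs. Col16a1 averaged 0.0177 CPM in AML cells and 2.55 CPM in GMPs, and Sdc2 averaged 0.0463 CPM in AML cells and 1.59 CPM in GMPs. Col1a1, the main bone collagen, averaged 0.446 CPM in AML cells and 2.50 CPM in GMPs (-1.02). Its call was lost without any 1 of 6 libraries (-0.84 to -0.997), 2 of them AML and 4 GMP, and in endosteal AML libraries alone (-0.80), and that of Sdc2 without control set A (-0.97). Col16a1 was at 0 in all libraries of clones 1 and 3, and against the level of 3 reads over the group it was at least 49.4-fold and 46.2-fold lower there than in GMPs. Some markers of other lineages were also higher in GMP libraries, and others were lower. Among megakaryocyte and platelet markers, 5 of 7 tested were called lower in AML cells and 1 higher, with summed levels of 5.76 to 137 CPM in AML libraries and 39.2 to 154 CPM in GMP libraries (Pf4 averaged at most 0.371 CPM in a clone, against 48.5 CPM in GMPs). Selp is itself on that list. Among erythroid markers, 3 of 6 were called lower and none higher (14.8 to 63.7 CPM in AML libraries, 25.2 to 150 CPM in GMP libraries), and Gata1 averaged at most 0.246 CPM in a clone, against 3.25 CPM in GMPs. Among stromal, bone and endothelial markers, a list that holds Col1a1, 3 of 13 were called lower and 3 higher (27.3 to 105 CPM in AML libraries, 51.5 to 101 CPM in GMP libraries). Tek was at 0 in all 18 AML libraries and averaged 0.832 CPM in GMPs. Cxcl12 went the other way, averaging 0.178, 7.03 and 6.58 CPM in clones 1, 3 and 19 and 0.0762 CPM in GMPs. In bulk libraries, fewer cells of a type and less RNA per cell cannot be told apart, and the part of these lineages in the lower members was not tested.

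Genes around the integrins came from 4 lists, drawn up with earlier results known. Of 44 tested, 9 were called higher (20.5%) and 5 lower (11.4%), near the 18.2% and 12.4% of all genes. Of 19 tested adaptor and signaling genes, 3 were called higher and 2 lower, with a median log2 fold change of 0.50 beside 0.33 over all genes. The higher ones included the kinase Fgr (log2 fold change 2.27) and the adaptor Skap2 (1.32), both of beta2 integrin signaling, and the lower ones were the kinase Fyn (-1.70) and the focal adhesion protein Tns1 (-1.31). Of 8 tetraspanins and ligands, 2 were called higher and 1 lower. Vcam1, the counter-receptor of VLA-4, averaged 107, 22.8 and 108 CPM in clones 1, 3 and 19 and 13.3 CPM in GMPs (log2 fold change 2.25 ± 0.24). Of 9 matrix assembly genes, 3 were called higher, among them Plod1 (2.46), which hydroxylates collagen lysines, and 1 lower, Ltbp3 (-3.12), which binds latent TGF-beta. Of 9 other proteases and inhibitors, Ctss, the lysosomal protease cathepsin S (1.76), was called higher and Bmp1, a procollagen C-proteinase (-1.09), lower.

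**Figure D2:**
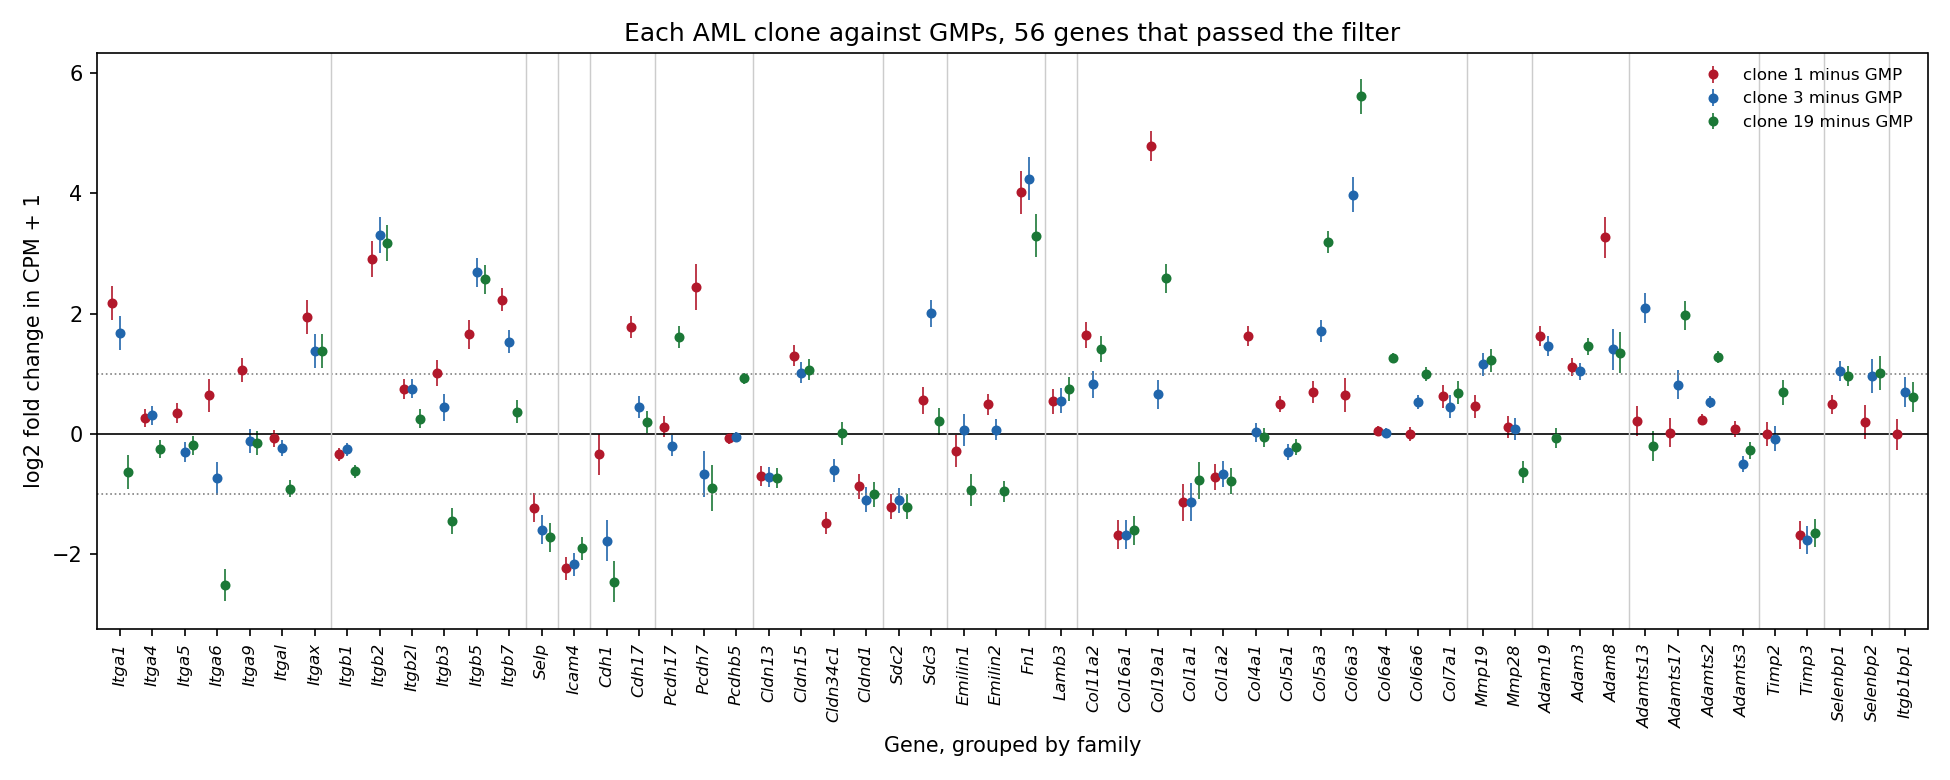
Log2 fold change of CPM + 1 in clones 1, 3 and 19 against the same 9 GMP libraries for 56 of the 57 tested members, grouped by family (points with standard error; dotted lines mark the size needed for a call). Itgb2, Itgb5, Fn1, Icam4, Timp3 and Col16a1 lay on the same side in all 3 clones, whereas Itgb3, Itga6, Col6a3 and Col19a1 spread widely.

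Each clone was then set against the same GMPs. Clone 1 had 17 of 57 members called higher and 7 lower (16.5% and 10.6% of all genes), clone 3 had 16 and 8 (22.2% and 15.6%), and clone 19 had 18 and 9 (23.8% and 16.3%). These comparisons share their 9 control libraries. Itgb3, the beta3 chain of the platelet and osteoclast integrins (chromosome 11, 104608000 to 104670476), was called higher in clone 1 (1.01 ± 0.22, adjusted p = 0.000271) and lower in clone 19 (-1.45 ± 0.22, adjusted p = 1.99e-06), so that its mean change over all AML cells was -0.00. Itga6 was called lower in clone 19 alone (-2.52 ± 0.27, adjusted p = 7.71e-09), against 0.64 in clone 1 and -0.74 in clone 3. Itga1 was higher in clone 1 (2.17 ± 0.28) and clone 3 (1.68 ± 0.28), and stood at -0.63 in clone 19.

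Differences among clones were tested directly in the 18 AML libraries, with region in the model, for 49 members that passed the filter there. Clone 1 had 11 members higher and 4 lower than the mean of the other clones, beside 8.44% and 7.07% of all 4820 genes. Clone 3 had 2 higher and 3 lower (3.94% and 4.09%), and clone 19 had 6 higher and 10 lower (7.05% and 6.54%). Integrin chains contributed 5 of the 11 higher calls in clone 1 and 4 of the 10 lower calls in clone 19, and none in clone 3. The filter bears on these counts too. Fewer than 3 libraries outside clone 1 reached 1 CPM in 4 of its higher calls (Cdh17, Col4a1, Itga9 and Pcdh7), as for 1 in clone 3 (Adamts13) and 2 in clone 19 (Col6a4 and Pcdh17). Of the lower calls, 3 in clone 1, 2 in clone 3 and 4 in clone 19 passed through the other clones alone. Clones 1, 3 and 19 did not overlap with the other clones in 8.93%, 3.21% and 10.9% of all 5486 genes. Of the 63 members, the same held for 7, 3 and 15.

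A trio of integrin chains ranked clone 1, clone 3, clone 19. Itga6, a laminin receptor chain, stood at 48.98, 57.7 and 306 CPM (lowest, median, highest) in clone 1, at 16.7, 26.2 and 55.4 CPM in clone 3 and at 6.87, 7.14 and 9.39 CPM in clone 19, beside 39.1, 46.6 and 59.8 CPM in GMPs. All clone 19 libraries lay below all others. Without library 18 the highest clone 1 value was 69.1 CPM. Each pair of clones differed (clone 1 minus clone 3, 1.38 ± 0.34, adjusted p = 0.00373; clone 3 minus clone 19, 1.78 ± 0.34, adjusted p = 0.00049).

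Itga1 stood at 9.00, 21.3 and 45.5 CPM in clone 1, 8.54, 17.7 and 21.7 CPM in clone 3 and 0.865, 2.84 and 4.11 CPM in clone 19, beside 1.40, 4.86 and 6.01 CPM in GMPs. Clone 19 did not overlap with the others (-2.56 ± 0.27 against their mean, adjusted p = 3.84e-07), whereas clones 1 and 3 did not differ beyond their spread (0.49 ± 0.32, adjusted p = 0.21). Pelo lies within Itga1 on the same strand, and reads of the pair may not be fully separable. Itgb3 had 11.0, 18.7 and 24.2 CPM in clone 1, 6.37, 13.2 and 17.7 CPM in clone 3 and 1.15, 2.37 and 3.65 CPM in clone 19. Clone 19 again lay below the others (-2.18 ± 0.22, adjusted p = 1.52e-07), while clone 1 minus clone 3 was 0.57 ± 0.25 (adjusted p = 0.0689). Itga2b, the partner of Itgb3 on platelets and no member, was 1.93 higher in clone 1 than in the other clones and averaged 5.75, 0.942 and 0.619 CPM in clones 1, 3 and 19, against 45.04 CPM in GMPs.

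Itgb7 also fell in this order, with means of 104 ± 38.6, 63.5 ± 24.7 and 26.1 ± 2.50 CPM in clones 1, 3 and 19 (SD, n = 6 each). Clone 19 was 1.51 ± 0.23 lower than the others (adjusted p = 2.97e-05) without overlap. Clone 1 was 1.28 ± 0.23 higher (adjusted p = 0.000162), but its endosteal libraries alone gave 0.76 (adjusted p = 0.0864, beside 5.96e-07 to 0.000733 under the other alternatives). Itga9, an alpha chain that binds tenascin-C and osteopontin, was 1.201 ± 0.22 higher in clone 1 at a mean of 1.87 CPM, and 0.998 without central library 21. Emilin2, an elastin microfibril glycoprotein, averaged 49.98 ± 14.6, 36.3 ± 7.82 and 17.4 ± 4.01 CPM in clones 1, 3 and 19 and 34.3 ± 6.25 CPM in GMPs, with clone 19 lower than the other clones by 1.23 ± 0.17 (adjusted p = 1.15e-05). Cdh1 was 1.78 ± 0.32 higher in clone 1 and 1.40 ± 0.32 lower in clone 19 than in the mean of the others. Clones 3 and 19 did not differ beyond their spread in Cdh1 (clone 3 minus clone 19, 0.69 ± 0.37, limma, adjusted p = 0.185).

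Collagen genes split the clones in other directions. Col6a3 stood at 0, 0.118 and 4.22 CPM in clone 1, 11.5, 16.9 and 21.7 CPM in clone 3, and 41.3, 51.9 and 77.4 CPM in clone 19, beside 0 to 0.536 CPM in GMPs. The 3 clones did not overlap, and clone 1 minus clone 19 was -4.97 ± 0.35 (adjusted p = 1.12e-09). In clone 1 the 2 highest values, 2.76 CPM in endosteal library 16 and 4.22 CPM in central library 17, stood apart from 4 libraries at 0.122 CPM or less. Col5a3 had the same order, with 1.31 ± 0.71, 3.55 ± 1.12 and 11.7 ± 2.90 CPM in clones 1, 3 and 19 and 0.373 ± 0.19 CPM in GMPs, and clone 19 was 1.99 ± 0.19 above the others (adjusted p = 9.68e-08).

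Col19a1 ran differently, at 23.3, 27.5 and 93.6 CPM in clone 1, 0.201, 0.894 and 2.14 CPM in clone 3, and 3.57, 6.43 and 8.20 CPM in clone 19, beside 0, 0.101 and 1.49 CPM in GMPs. No 2 clones overlapped. Clone 1 was 3.17 ± 0.25 above the other clones (adjusted p = 7.74e-09) and clone 3 was 3.03 ± 0.25 below them (a log2 fold change of -3.03, adjusted p = 5.8e-08). The top value came from library 18, and the next was 29.0 CPM. Col4a1, a chain of basement membrane collagen IV, averaged 3.29 ± 0.84 CPM in clone 1 and 0.375 ± 0.27 CPM in the other clones (1.64 ± 0.15, adjusted p = 5.68e-08), without overlap.

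The collagen VI genes Col6a4, Col6a5 and Col6a6 lie side by side on chromosome 9, between 105687809 and 106096783, on the minus strand. All 3 were at 0 in every GMP library. Col6a4 averaged 1.43 ± 0.39 CPM in clone 19, at least 28.0-fold above the level of 3 reads over the 7 GMP libraries with known depth, and at most 0.110 CPM in any library of clones 1 and 3. Col6a6 averaged 1.01 CPM in clone 19 (at least 19.8-fold) and 0.483 CPM in clone 3 (at least 9.46-fold), and Col6a5 averaged 0.573 CPM in clone 3 (at least 11.2-fold). Both were at 0 in all 6 libraries of clone 1. Only Col6a4 and Col6a6 reached the filter.

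Proteases differed too. Adamts13, which cleaves von Willebrand factor, stood at 2.30, 3.72 and 8.04 CPM in clone 3, above all other AML libraries (0 to 1.43 CPM), with a log2 fold change of 2.09 ± 0.20 (adjusted p = 4.92e-07). Adamts17 averaged 5.32 ± 1.38 CPM in clone 19 and 1.36 ± 1.15 CPM in the other clones (1.55 ± 0.24, adjusted p = 3.38e-05). Adam8 averaged 27.01 ± 21.5 CPM in clone 1 and 4.90 ± 2.43 CPM in the other clones (1.89 ± 0.42, adjusted p = 0.000984), but its endosteal libraries alone gave 0.87, which was not past the threshold. Adam19 was 1.61 ± 0.20 lower in clone 19 (a log2 fold change of -1.61, adjusted p = 2.54e-06), at 0 to 0.311 CPM against 1.01 to 5.52 CPM in the other clones.

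Protocadherins and a syndecan completed the calls. Pcdh7 stood at 2.43, 14.9 and 48.98 CPM in clone 1 and at 0 to 0.804 CPM in the other clones (3.23 ± 0.41, adjusted p = 3.7e-06). Libraries 16 and 17 were at 2.43 CPM each, the lowest of clone 1, and library 18 was the highest. Pcdh17 averaged 3.14 ± 1.56 CPM in clone 19 and 0.260 ± 0.21 CPM in the other clones (1.65 ± 0.17, adjusted p = 2.93e-07). Sdc3, a syndecan of the cell surface, averaged 5.43 ± 1.68 CPM in clone 3 and 1.19 ± 1.01 CPM in the other clones (1.62 ± 0.24, adjusted p = 4.71e-05). Cdh17, an intestinal and liver cadherin, averaged 2.62 ± 1.26 CPM in clone 1 and was at 0 in GMPs, at least 51.2-fold higher by the same floor. Cldn34c1, of a claudin family with near copies on the X chromosome, was at 0 in all clone 1 libraries and averaged 1.35 ± 0.62 CPM in the other clones.

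Markers of other lineages also moved between clones. Neutrophil markers had 5 of 11 called lower in clone 19 and none higher (summed level 573 to 1150 CPM in clone 19, 598 to 3134 CPM in clones 1 and 3). In clone 1, 3 of 3 tested megakaryocyte markers were called higher (27.5 to 137 CPM in clone 1, 5.76 to 27.4 CPM in clones 3 and 19). Itgb3 and Itga2b, both given above, are among them. Over all genes, 6.54% were called lower in clone 19 and 8.44% higher in clone 1. The part of these lineages in the clone differences was not tested. Clone 19 was the clone grown from donor spleen, and donor tissue and clone cannot be told apart.

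**Figure D3:**
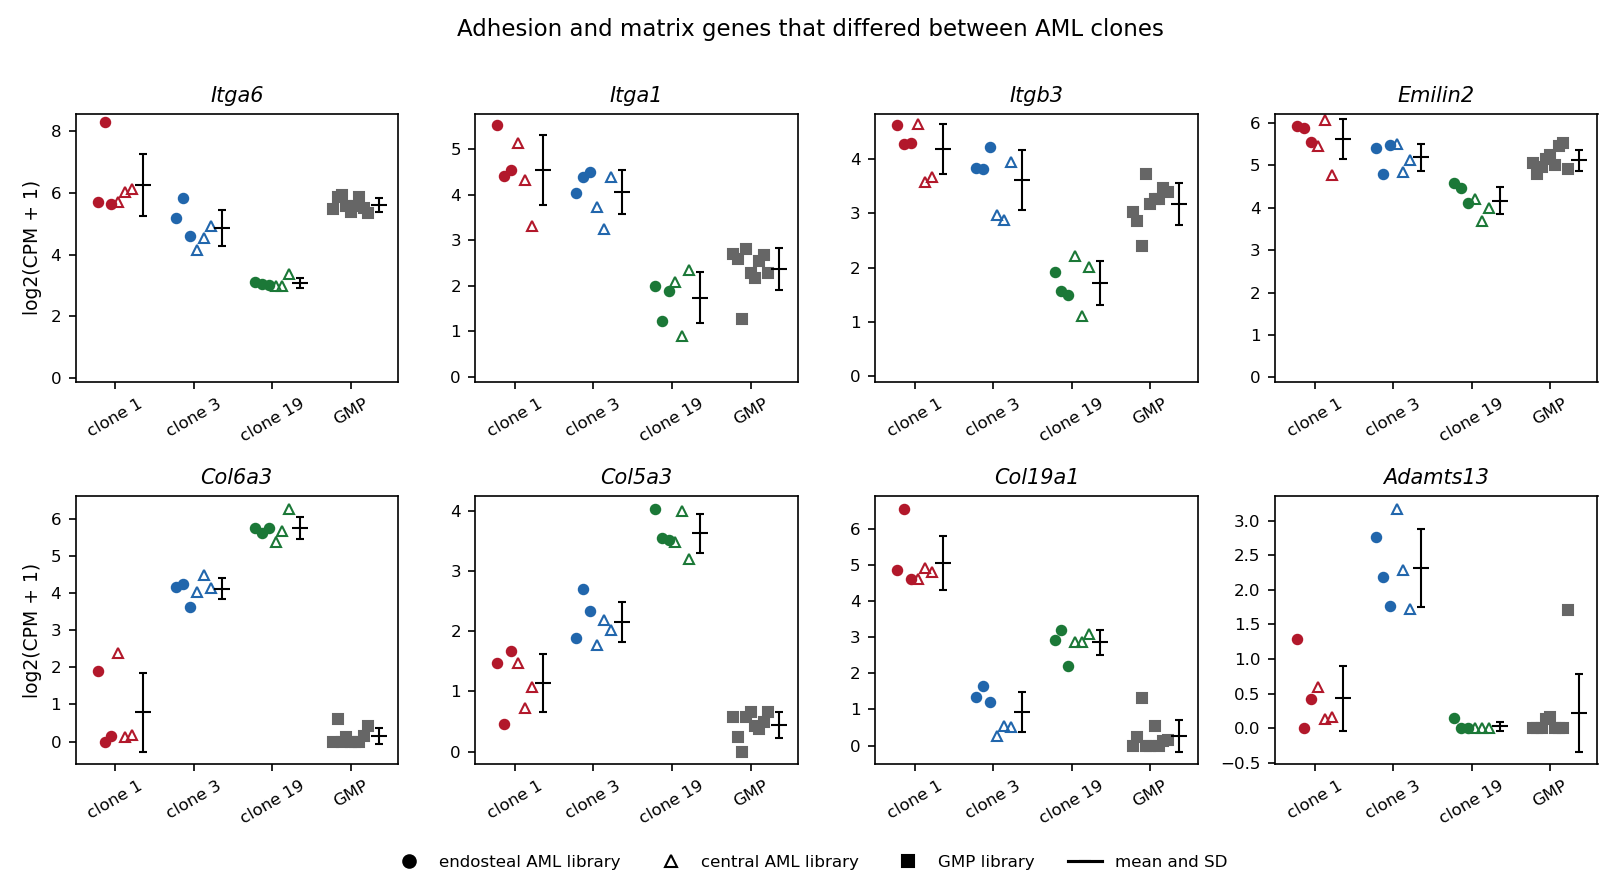
Level of 8 adhesion and matrix genes in each library on a log2(CPM + 1) scale, for clones 1, 3 and 19 and for GMPs (filled circles endosteal, open triangles central, squares GMP; black marks show mean and SD). Itga6, Itga1, Itgb3 and Emilin2 were lowest in clone 19, Col6a3 and Col5a3 highest there, Col19a1 highest in clone 1 and Adamts13 highest in clone 3.

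Promoter windows are shown for 4 members that separated the clones and had a RefSeq entry: Col6a3 and Col5a3, which were highest in clone 19, and Col19a1 and Itgb7, which were highest in clone 1. Each window covers 250 bases before to 50 bases after the gene's start on the gene's own strand (RefSeq, GRCm38.p6). They lie at chr1:90843922-90844221 (minus strand), chr9:20815018-20815317 (minus), chr1:24587388-24587687 (minus) and chr15:102231886-102232185 (minus). Capitals mark matches to GAGGAA, the core of sites of the myeloid factor PU.1, read on either strand (TTCCTC on the other).
Col6a3: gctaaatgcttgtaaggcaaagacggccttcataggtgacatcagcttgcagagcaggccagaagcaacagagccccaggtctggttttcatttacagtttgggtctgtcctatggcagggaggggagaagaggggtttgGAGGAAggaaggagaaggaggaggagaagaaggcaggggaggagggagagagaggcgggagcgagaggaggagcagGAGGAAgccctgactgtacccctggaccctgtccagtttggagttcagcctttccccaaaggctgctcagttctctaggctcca
Col5a3: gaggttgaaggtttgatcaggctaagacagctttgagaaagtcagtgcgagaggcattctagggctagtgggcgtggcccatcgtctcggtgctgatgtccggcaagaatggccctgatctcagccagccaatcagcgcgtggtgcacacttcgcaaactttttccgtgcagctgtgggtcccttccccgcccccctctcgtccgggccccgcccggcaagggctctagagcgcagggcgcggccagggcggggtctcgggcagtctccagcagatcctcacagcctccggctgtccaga
Col19a1: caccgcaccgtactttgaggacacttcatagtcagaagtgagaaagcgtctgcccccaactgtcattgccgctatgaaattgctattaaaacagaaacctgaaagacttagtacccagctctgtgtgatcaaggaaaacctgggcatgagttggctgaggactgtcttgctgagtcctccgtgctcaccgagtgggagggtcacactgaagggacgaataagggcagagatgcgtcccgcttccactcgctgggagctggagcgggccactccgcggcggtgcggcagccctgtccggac
Itgb7: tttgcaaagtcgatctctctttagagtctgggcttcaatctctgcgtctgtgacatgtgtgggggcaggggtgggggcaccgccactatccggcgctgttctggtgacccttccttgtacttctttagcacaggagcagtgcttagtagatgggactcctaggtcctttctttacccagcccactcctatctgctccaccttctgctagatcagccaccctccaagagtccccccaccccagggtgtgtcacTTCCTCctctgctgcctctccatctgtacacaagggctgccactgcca
GAGGAA occurred at 2 places in the Col6a3 window, 110 and 34 bases before the start, and once in the Itgb7 window on the opposite strand, 2 bases after the start. The Col5a3 and Col19a1 windows had no match to it. None of the 4 windows held TGTGGT (RUNX factors), TGANTCA (AP-1) or AGATAA (the site of GATA factors) on either strand. Over all 32851 RefSeq windows of this length, 28.3% held GAGGAA, 16.8% TGTGGT, 7.81% TGANTCA and 11.2% AGATAA. Among the 52 windows of the 48 matched members, 13 held GAGGAA (25%), 3 TGTGGT (5.77%), 5 TGANTCA (9.62%) and 4 AGATAA (7.69%). A match is a description of the letters only.

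The last question was whether adhesion genes differed between AML cells of the endosteal and the central marrow. None did at the adjusted threshold. Over the 3 clones, with clone in the model, 0 of 49 members were called higher or lower, as were 0 of all 4820 genes (0% in each direction), by limma. At an unadjusted p below 0.05 there were 3 members, all higher in endosteal cells, and 183 genes higher and 40 lower over the table. edgeR's quasi-likelihood test and voom on the recovered reads also called no member. The 5 members with the smallest p-values were Adam19, Timp2, Col5a1, Col19a1 and Emilin2, each with an adjusted p of 0.887.

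The sizes were small. Adam19 averaged 2.47 ± 2.14 CPM in endosteal AML cells, against 1.23 ± 1.06 CPM in central ones (SD, n = 9 each; log2 fold change 0.50 ± 0.19). Timp2, an inhibitor of metalloproteases and a cofactor in activating MMP2, averaged 14.4 ± 4.30 CPM in endosteal cells, against 11.0 ± 4.56 CPM in central ones (0.39 ± 0.15). Col5a1 was 0.20 ± 0.08, Col19a1 0.45 ± 0.23 and Emilin2 0.28 ± 0.16 higher. Over integrins, the median log2 fold change was 0.21 for 7 alpha chains and 0.07 for 6 beta chains. Itga6 averaged 136 CPM in endosteal and 61.5 CPM in central libraries of clone 1, where library 18 alone had 306 CPM. Its endosteal and central means were 38.02 and 22.6 CPM in clone 3, and 7.34 and 7.72 CPM in clone 19. Means lay close in Itgb2 and Itga4. Itgb2 averaged 44.2 ± 15.4 CPM in endosteal cells, against 44.8 ± 13.2 CPM in central ones. Itga4 averaged 41.3 ± 10.5 CPM in endosteal cells, against 43.1 ± 8.58 CPM in central ones.

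The summed level of all 63 members averaged 903 CPM in endosteal AML libraries, against 857 CPM in central ones, a difference of 46.4 CPM (exact permutation test over 8000 arrangements within clones, two-sided, p = 0.352). In clone 3 the sums were 901 to 1027 CPM in endosteal libraries, against 763 to 831 CPM in central ones, without overlap. In clone 1 they were 825 to 1087 CPM in endosteal libraries, against 877 to 1167 CPM in central ones, and in clone 19 they were 729 to 819 CPM in endosteal libraries, against 685 to 815 CPM in central ones. The sum was 685 to 1167 CPM over AML libraries, against 488 to 603 CPM over GMP libraries.

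Within single clones, 0 of 49 members were called in each (0%, 0.0415% and 0% of all genes in clones 1, 3 and 19), where 9, 5 and 0 members had an unadjusted p below 0.05. Which libraries of the regions share a mouse is not given, so pairs were not fitted, and p-values between regions may be too large if mice are shared. The calls moved with single libraries. Without endosteal library 20 of clone 1, 4 members passed in clone 1 (Timp2, 1.054, and Col7a1, 1.37, higher in endosteal cells; Adam8, -2.26, and Emilin1, -1.03, lower), as did 74 genes higher and 77 lower of 4793 over the table. Without library 18, Cldn15 passed in clone 3 (0.77), with 15 genes higher and 1 lower of 4779. A test of whether the region difference itself varied among clones called 0 of 49 members (0% of all genes), with 9 at an unadjusted p below 0.05. The smallest were Cldn15 (adjusted p = 0.71), Itgal and Itgb7 (both 0.765). The levels that follow are of genes not called with all libraries, and genes over the table that separate in this way were not counted. Itgb7 stood at 65.9 to 93.7 CPM in endosteal and 34.3 to 54.7 CPM in central libraries of clone 3. In clone 1 it stood at 43.5 to 131 CPM in endosteal and 99.2 to 158 CPM in central libraries. Cldn15 was likewise higher in all 3 endosteal libraries of clone 3 (65.0 to 76.0 CPM) than in its central ones (38.9 to 44.05 CPM), and so was Col19a1 (1.32 to 2.14 CPM in endosteal libraries, against 0.201 to 0.466 CPM in central ones; adjusted p = 0.595).

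**Figure D4:**
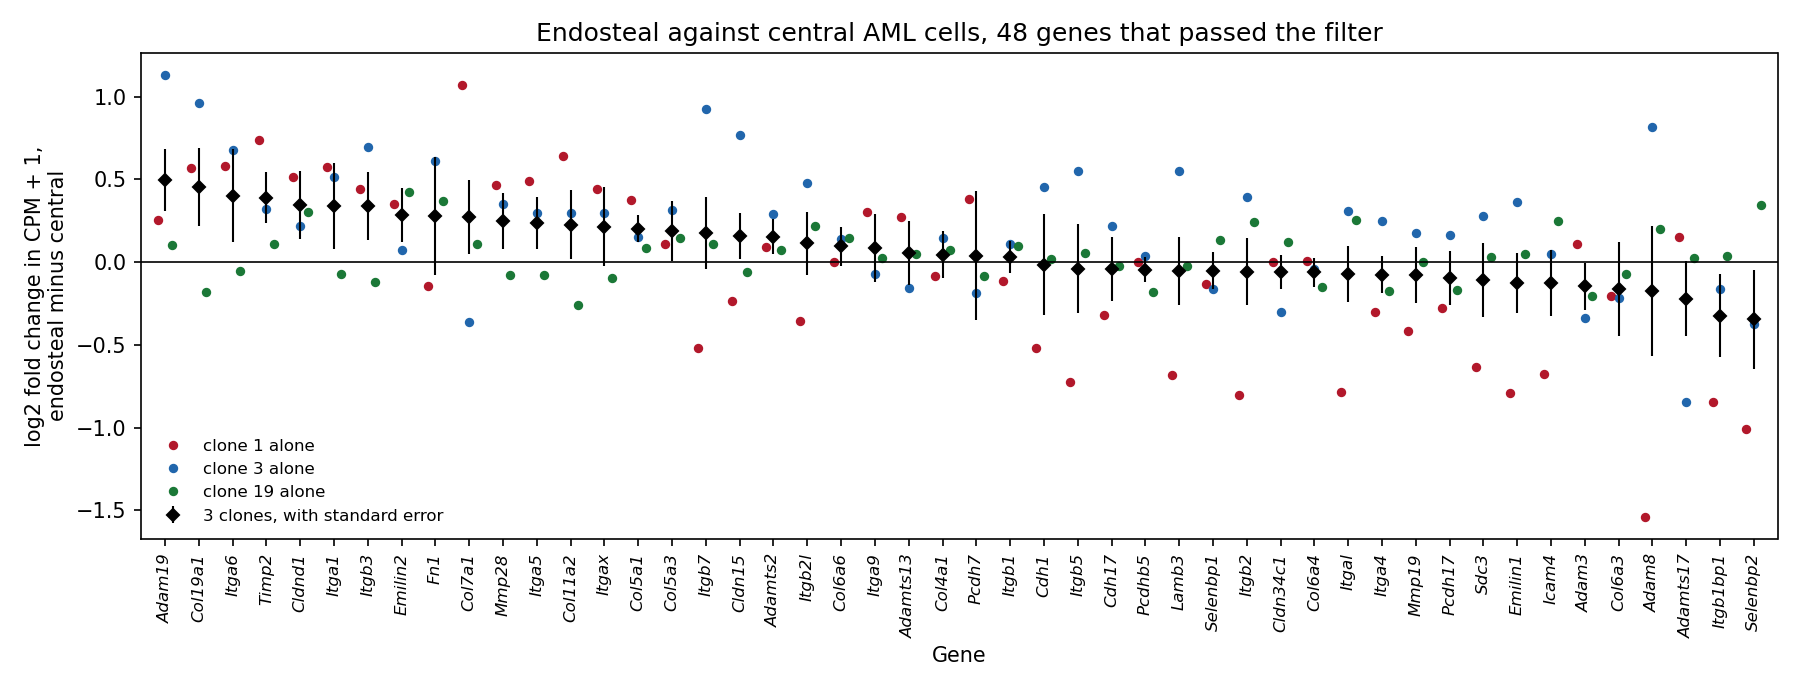
Log2 fold change of CPM + 1 between endosteal and central AML cells for 48 of the 49 members, over the 3 clones (black diamonds with standard error) and in clones 1, 3 and 19 alone (coloured points). The pooled changes ran between 0.50 for Adam19 and -0.35 for Selenbp2, and single clones scattered to both sides of them.

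The 3 genes that matched by spelling alone were Selenbp1, Selenbp2 and Itgb1bp1. Over all AML cells none was called. Selenbp1 was called higher in clone 3 (1.047; 0.82 to 0.97 and no call with TMM or quantile scaling, without control set A, without GMP library 9 or in endosteal libraries alone) and Selenbp2 in clone 19 (1.01), but these are near-identical copies between which reads may be split. Itgb1bp1 stood at 0.44 and its gene overlaps Asap2 and Cpsf3.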

How the data were processed

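Libraries were made from 3′ ends of mRNA. The authors demultiplexed reads, trimmed them with Cutadapt 1.9, aligned them with HISAT2 (mm10), summed them over genes using featureCounts (strand setting not given in the sources used here) and deposited CPM rounded to 3 decimals. The deposited p-value column was read only to test that every gene lies below 0.05, and the authors' fold changes were not used. Header labels tie each column to a group, so libraries carry their header number. The study calls the libraries of a clone biological replicates, 3 where 6 libraries are held, so endosteal and central libraries may share mice, which are not paired in the labels. Tests of clones and of AML against GMP may then give p-values that are too small.

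Values were tested as log2(CPM + 1), which understates changes of low genes, with limma 3.58.1 (trend, R 4.3.3) after keeping genes at 1 CPM in at least 3 libraries, and p-values were adjusted by Benjamini-Hochberg over all genes tested. AML against GMP used 7 groups, clones and regions an additive model of AML libraries. For AML against GMP, standard errors and p-values rest on the spread of libraries within the 7 groups, not on that among the 3 clones. Reads came out whole (within 0.1) for 100.0% of values under 100 CPM in 24 of 27 libraries. These were used for edgeR 4.0.16 and voom as alternatives. Other alternatives were pseudocounts of 0.5 and 3, filters, TMM and quantile scaling, and leaving out libraries, control sets, clones or regions. Named genes were up to 10 called members per direction with the largest change and a mean of at least 5 CPM in 1 group, other called members, integrins, selectins, ICAMs and metalloproteases, and the 5 smallest p-values for region. Members and lists were chosen with earlier results of these data known. A member and a listed gene are counted but not reported here. Scripts were tested on simulated data. Genes were placed with GENCODE M21.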

Additional observations from a re-analysis of the deposited data

Results flagged for a closer look

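In 4 of 35 members examined, 1 of the 9 GMP libraries lay far from the rest. The gap is one that about 1 of 20 groups of normally distributed values exceed (1.75 of 35). These 4 members were near the floor in most GMP libraries, where that rate need not hold, so the counts do not measure an excess. Col19a1 was at 1.49 CPM in GMP library 9, with the next at 0.463 CPM. Adamts13 was at 2.28 CPM in GMP library 27, with the next at 0.117 CPM. Adam3 was at 0.695 CPM in GMP library 25, with the next at 0.357 CPM. Adamts2 was at 0.097 CPM in GMP library 22, the value of 1 read, and at 0 in the other 8.

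Itgb3 moved in opposite directions in 2 clones against the same GMPs, at 1.01 in clone 1 and -1.45 in clone 19. The difference between these clones, 2.47 ± 0.25 on the log2 scale, was past the threshold (limma, adjusted p = 1.53e-07).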

How the results depend on the processing

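With a pseudocount of 3 the members called higher or lower were 9 and 2 for AML against GMPs, 11 and 1 for clone 1, 9 and 2 for clone 3 and 10 and 4 for clone 19 against GMPs. Against the other clones they were 2 lower in clone 1, and 2 higher and 6 lower in clone 19. A pseudocount of 0.5 gave 4 higher in clone 3. With a filter at 5 CPM, members called lower were 2 for AML, 1, 3 and 5 for clones 1, 3 and 19 against GMPs, 2 for clone 1 against the others, and 1 higher in clone 3 and 2 higher in clone 19. This filter tests fewer genes. With edgeR on whole reads, members lower were 12 for AML, 14 and 17 for clones 3 and 19 against GMPs, and 7, 5 and 16 for clones 1, 3 and 19 against the others, with 5 higher in clone 3. With voom they were 11, 13 and 15 against GMPs, and 9 lower in clone 1, and 6 higher and 6 lower in clone 3 against the others. Endosteal libraries alone gave 4 higher and 1 lower in clone 3, for which counts over all genes are not given here. Over all genes, calls for AML against GMPs were 549 higher and 345 lower of 5160 with the pseudocount of 3, 782 and 471 of 3781 with the filter at 5 CPM, 1289 and 1037 of 5160 with edgeR and 1389 and 1011 with voom, beside 939 and 641 as reported. The pseudocount of 3 gave 506, 721 and 729 genes higher and 311, 456 and 517 lower in clones 1, 3 and 19 against GMPs. With edgeR there were 1245, 1399 and 1445 higher and 807, 1150 and 1202 lower. Against the other clones, edgeR gave 684, 334 and 562 higher and 525, 325 and 550 lower of 4820. The pseudocount of 3 gave 197 lower in clone 1, and 183 higher and 181 lower in clone 19. That of 0.5 gave 243 higher in clone 3. Voom gave 675 lower in clone 1, and 359 higher and 326 lower in clone 3. Of 3539 genes, the filter at 5 CPM gave 285 lower in clone 1, 152 higher in clone 3 and 251 higher in clone 19. Against GMPs, it gave 381, 593 and 650 lower of 3781 in clones 1, 3 and 19. With voom, 1114 and 1158 of 5160 were lower in clones 3 and 19. Causes were not tested.

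Leaving out each library in turn gave 12 to 16 members higher and 6 to 9 lower for AML against GMPs, 0 to 4 called in clone 1 and 0 to 1 in clone 3 between regions, and no change beyond 1.5 times elsewhere. Without libraries 9, 18 and 25, chosen after seeing the data, 1 member (Cldn15) was called between regions in clone 3.

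Signs turned only for members that were not called for AML against GMPs. Itgb3 was at 0.0644 with a pseudocount of 3, 0.0153 with edgeR, 0.0108 with voom, 0.11 and 0.10 without control sets B and C, 0.17 in endosteal libraries, 0.73 without clone 19, and -0.097 to 0.0683 without single libraries. Itga4 was at -0.0135 with TMM, -0.0602 with quantile, -0.0535 with edgeR, -0.0451 with voom and -0.073 without set C. Itga5 was at 0.0557 without set A, 0.0679 in endosteal libraries, 0.0773 without clone 3, 0.0207 without clone 19, and -0.098 to 0.0139 without single libraries. Mmp28 was at 0.0933 without clone 19 and Adamts13 at -0.26 with edgeR. No paired analysis was possible because the columns carry no replicate number shared between the groups, and which libraries share a mouse is not given. A level under about 0.05 CPM over a group of libraries rests on fewer than 3 reads.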

Other observations

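Clone 1 libraries 16 (endosteal) and 17 (central) resembled each other in several members. Both had Col6a3 above 2 CPM (2.76 and 4.22 CPM) where the other 4 had at most 0.122 CPM, Pcdh7 at 2.43 CPM each where the others had 13.7 to 48.98 CPM, and the top Itga1 levels of the clone (45.45 and 34.003 CPM, others 9.00 to 22.3 CPM). The labels do not say whether the pair shares a mouse.

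In clone 3, Adamts13 stood at 5.80, 3.57 and 2.40 CPM in endosteal libraries 1, 3 and 5 and at 8.04, 3.88 and 2.30 CPM in central libraries 2, 4 and 6.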
